A study of Homo sapiens with 6 samples.

Results

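The genes described here are 48 human genes whose products build ribosomes in and around the nucleolus, chosen by name as RNA polymerase I (Pol I) subunits and initiation factors, snoRNP proteins, small-subunit processome proteins and 60S assembly factors. All 48 were found by symbol among the 57819 genes of the deposited table, and all 48 passed the filter on low values, at least 10 normalized reads as the mean of the 6 libraries. The rule goes by name and uses no measured value, but it was written with earlier results of these data known. The study measured polyA RNA in IMR90 ER:Ras cells. These are human lung fibroblasts in which oncogenic Ras, joined to an estrogen receptor domain, can be switched on with 4-hydroxytamoxifen (4OHT). In this setting activated Ras drives senescence. All 6 libraries came from cells that carried ER:Ras and were given 4OHT, at 200 nM for 3 days. The control group (3 libraries) received a scrambled siRNA, siSCR, and the knockdown group (3 libraries) an siRNA directed at sin-lncRNA, a long noncoding RNA. The labels name 1 siRNA against the target, si1, and 1 cell line; the knockdown columns of the table carry an added ending on that name which the labels do not explain, and no culture without 4OHT was analysed here. Nothing in the labels says that replicates were separate cultures, so the p-values measure the spread between these libraries, which may be technical.

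Ribosome production starts when Pol I copies the ribosomal DNA repeats inside the nucleolus into a long precursor RNA. Box C/D and box H/ACA snoRNPs modify that precursor, the small-subunit processome folds and cuts its 5′ part into the core of the 40S subunit, and a separate chain of factors matures the 60S subunit. Many of the genes are known targets of MYC, which binds the DNA word CACGTG, called an E-box, as a dimer with MAX. Precursor and mature ribosomal RNA carry no poly(A) tail and were not measured, so the values below are levels of the messenger RNAs for the factors.

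The libraries held between 22117324 and 50913672 reads in genes, and the 3 knockdown libraries (at most 27882280) were all shallower than the 3 control libraries (at least 30271192). Depth and group therefore cannot be told apart from the libraries as deposited. After thinning each library to the lowest of the 6 totals, 27 of the 48 genes were called in place of 29. Of all genes tested, 7321 were called in place of 7805. The targeted lncRNA was at 3.70, 4.73 and 4.09 RPM (reads recovered from the table, on the CPM scale of the authors' effective library sizes) in the control libraries and at 0.493, 0.640 and 0.534 RPM in the knockdown libraries, or -2.86 on the log2 scale (SE 0.18; Benjamini-Hochberg adjusted p in limma = 7.9e-07). Fibroblast markers summed to between 42419.6 and 43774.7 RPM in controls and between 42866.4 and 43984.7 RPM in knockdowns, a sum in which FN1 weighs most. Of these 10 markers, 5 fell (COL1A1 by the most, at -0.88 on the log2 scale) and 4 rose (LUM by the most, at 0.68), and the part of these changes in the results below was not tested. Markers of epithelial, immune and endothelial cells (10 genes) summed to between 2.23 and 2.50 RPM in controls and between 2.73 and 3.31 RPM in knockdowns, with KRT5 at 0 in all 6 libraries. The endothelial gene VWF made up most of that sum and rose (means of 1.76 and 2.37 RPM, log2 fold change 0.42, SE 0.14; limma adjusted p = 0.034).

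Messenger RNAs of the ribosome biogenesis genes were mostly lower after sin-lncRNA knockdown, by small amounts. Of the 48 genes, 28 fell, 1 (GNL3L) rose and 19 did not pass the test, which was limma on the log2 values with Benjamini-Hochberg adjustment over all 19048 genes tested and a threshold of 0.05. At an unadjusted p under 0.05 the number past the threshold was 32. All genes were not counted at that threshold, so this number has no background beside it. In a transcriptome where 41.0% of all genes tested changed, 23.5% lower and 17.5% higher, the share of these genes that fell was 58.3%. Among protein-coding genes tested, 26.4% fell. The median log2 fold change of the 48 genes was -0.20, where that of all genes tested was -0.04, and values ran from -0.79 (NOLC1) to 0.20 (GNL3L). In bulk RNA, fewer cells making a transcript and less of it per cell cannot be told apart.

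Read by library, the 3 knockdown values lay below all 3 control values for 27 of the 48 genes and above them for 1, and overlapped for 20. Over all genes tested, all knockdowns lay below all controls for 28.5%. The 48 genes together took 0.305%, 0.340% and 0.337% of all reads in the control libraries and 0.294%, 0.289% and 0.298% in the knockdown libraries. Control replicate 1 thus lay nearest to the knockdowns. It was the lowest of the 3 controls for 41 of the 48 genes (85.4%), where it was lowest for 39.7% of all genes tested. Measured as the deviation from the control mean, the median of the 48 genes was -0.11, 0.05 and 0.05 (log2) in control replicates 1 to 3 and -0.22, -0.21 and -0.18 in the knockdown libraries. Without control replicate 1 the number called was 32 and the median log2 fold change -0.26, with 7279 of all 19048 genes called. Without control replicate 3, the deepest library, the number called was 20, with 5803 of all genes called.

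**Figure D1:**
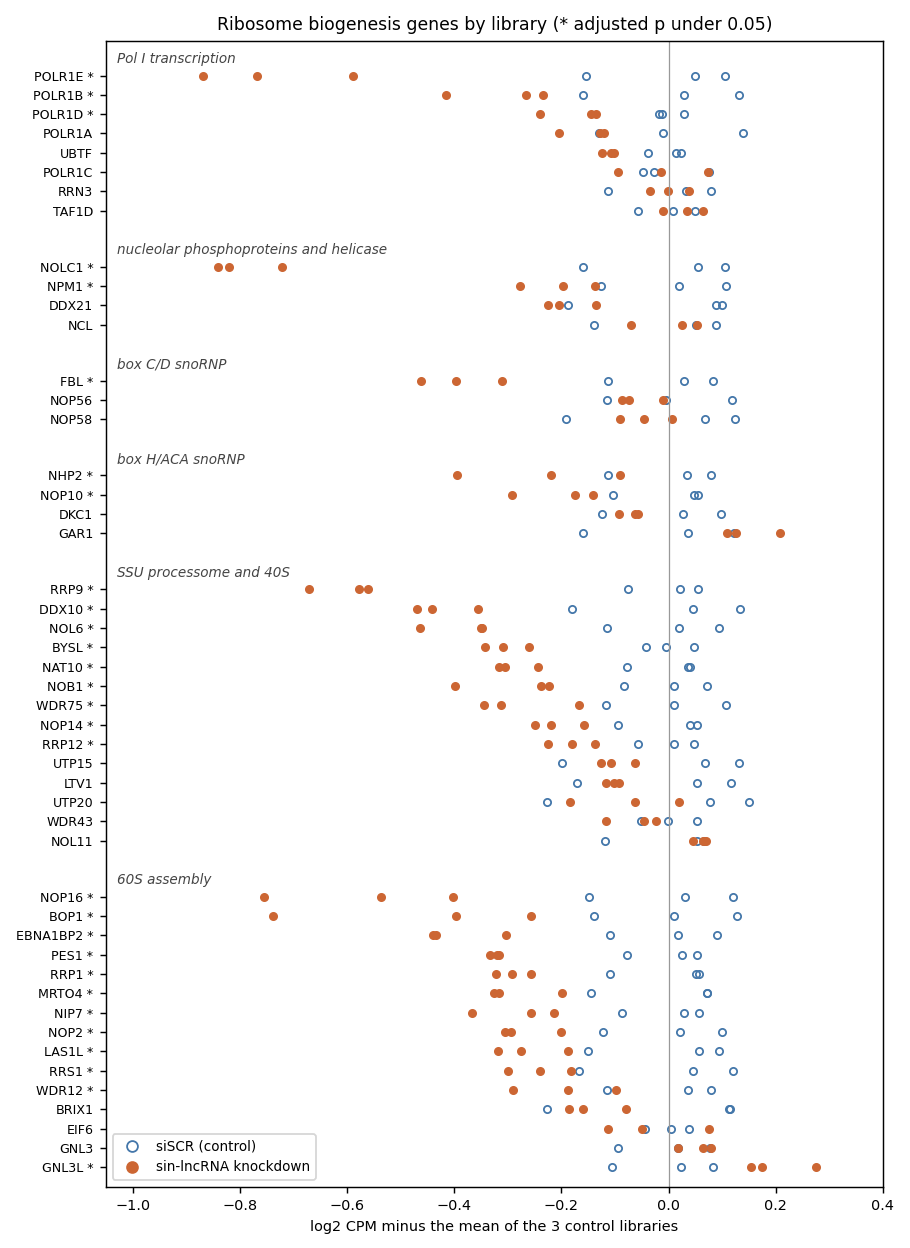
Each row is 1 of the 48 genes, grouped by role. The x axis is the log2 CPM of each library minus the mean of the 3 control libraries, open circles are control libraries, filled circles are knockdown libraries, and an asterisk marks an adjusted p under 0.05. The filled circles lie to the left of all open circles for 27 genes and to the right for 1, GNL3L.

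The word CACGTG was looked for near the transcription starts, since MYC itself was among the genes that fell (its values are given further on). The word is its own reverse complement, so both strands are read at once, and no overlap with another motif arises because it was the sole word searched. RefSeq windows from 250 bases before to 50 after each start (GRCh38.p14) were matched for 42 of the 48 genes; POLR1E, NOLC1, NOP58, RRP12, BOP1 and RRS1 had none. In the 250 bases before the start, 5 of the 42 genes (11.9%) held the word, against 11.2% of protein-coding genes tested. In the whole window, a choice made after the first count was seen, 17 of the 42 (40.5%) held it, against 12.5% of protein-coding genes tested, 24.6% of 114 other ribosome assembly genes and 6.35% of 63 cytosolic ribosomal protein genes. The difference between the counts lies mostly in the first 50 transcribed bases, where 23.1% of 52 windows of the 48 genes held the word against 0.965% of protein-coding windows. All 17 genes with the word had a copy within 50 bases of a start, and 11 had it only after the start.

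The stretches around the word are shown for the 5 genes that fell, are given in full below and carry it, so that its place can be compared between genes; capitals mark the word, letters run 5′ to 3′ along the gene's own strand, and the sequences are RefSeq's (GRCh38.p14). In FBL, NOL6 and PES1 the word begins 7, 14 and 14 bases into the transcript. In RRP9 it begins 5 bases before the start and runs across it. NOP10 has 2 copies, beginning 170 and 11 bases before the start.
FBL: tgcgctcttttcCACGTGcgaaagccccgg
NOL6: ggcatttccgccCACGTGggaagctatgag
PES1: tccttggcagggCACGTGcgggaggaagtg
RRP9: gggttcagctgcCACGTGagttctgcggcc
NOP10, distal copy: gtagggacactcCACGTGttttagcctgca
NOP10, proximal copy: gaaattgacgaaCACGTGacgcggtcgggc
The stretches lie at chr19:39846356-39846385 (FBL), chr9:33473894-33473923 (NOL6), chr22:30591880-30591909 (PES1), chr3:51941892-51941921 (RRP9), and chr15:34343289-34343318 and chr15:34343130-34343159 (NOP10), all on the minus strand. The bases next to the word differ between the genes. NOP10 is the gene whose upstream window alone holds 2 copies, and its 190 bases at chr15:34343137-34343326 show their spacing.
NOP10 upstream: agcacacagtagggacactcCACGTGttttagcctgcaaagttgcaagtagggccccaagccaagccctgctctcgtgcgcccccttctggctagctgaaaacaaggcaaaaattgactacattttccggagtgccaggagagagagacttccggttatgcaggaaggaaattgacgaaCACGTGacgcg

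The presence of the word did not track the call in these genes one to one. Of 23 genes that fell and had a window, 11 (47.8%) held it in the whole window, and of 18 that were not called 6 (33.3%) did: DDX21, GAR1, GNL3, LTV1, UTP20 and WDR43. The other 6 genes that fell and held it were BYSL, EBNA1BP2, MRTO4, NAT10, NOP14 and NOP2. A match is a word in a window and no measurement of binding, which was not assayed here.

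**Figure D2:**
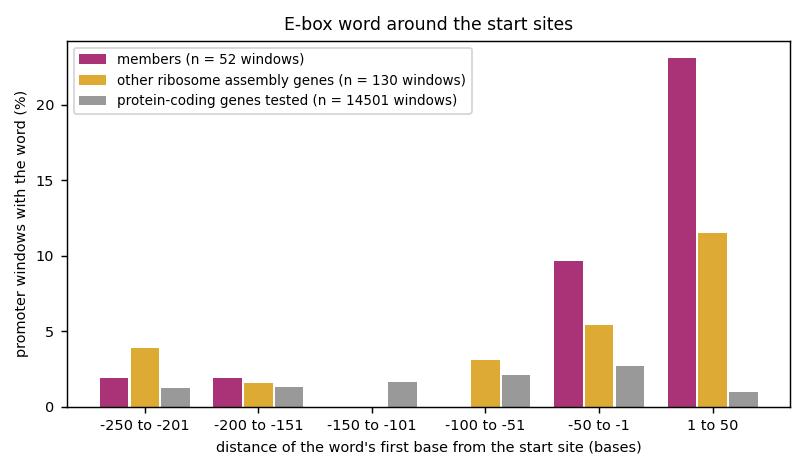
Bars give the percent of RefSeq promoter windows that hold CACGTG in each stretch of 50 bases around the start, for the ribosome biogenesis genes (n = 52 windows), the other ribosome assembly genes (n = 130) and protein-coding genes tested (n = 14501). In the stretch from 1 to 50 after the start the bars stand at 23.1%, 11.5% and 0.965%.

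Among the genes of Pol I transcription, 3 of 8 fell (37.5%) and 0 rose, with a median log2 fold change of -0.13. Of all genes tested 23.5% fell, and of protein-coding genes tested 26.4%. The 6 role groups hold few genes each, and no share of a role group was tested. The deepest fall was in POLR1E, which encodes the PAF53 subunit of Pol I (ENSG00000137054.11; chromosome 9, 37485932 to 37503694, plus strand, hg19 as in the table). POLR1E was at 32.0, 38.3 and 36.8 RPM in controls and 20.9, 19.5 and 23.7 RPM in knockdowns. The groups did not overlap, and the knockdown mean was 40.2% below the control mean (log2 fold change -0.74, SE 0.09; limma, Benjamini-Hochberg adjusted p = 6.5e-05). POLR1B, the second-largest catalytic subunit (ENSG00000125630.11; chromosome 2, 113299492 to 113334635), was at 32.0, 39.1 and 36.4 RPM in controls and 30.3, 26.8 and 29.7 RPM in knockdowns. Its highest knockdown library lay just under its lowest control library, replicate 1, and the log2 fold change was -0.30 (SE 0.08; limma adjusted p = 0.01), a call that was lost when the variance was fitted without the intensity trend.

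The largest subunit did not pass the test with all 6 libraries. POLR1A (ENSG00000068654.11; chromosome 2, 86247339 to 86333278) had the most reads of this group, at 109.6, 131.9 and 119.1 RPM in controls and 110.2, 104.0 and 109.6 RPM in knockdowns, and its groups overlapped through control replicate 1. Its log2 fold change of -0.15 (SE 0.06) had a limma adjusted p of 0.079, and it was called lower once control replicate 1 was left out. POLR1D, a subunit shared with Pol III, fell with a log2 fold change of -0.17 (SE 0.05), on a mean of 65.4 ± 1.18 RPM in controls and 58.0 ± 2.29 RPM in knockdowns (SD, n = 3); without the intensity trend it was not called. The other shared subunit, POLR1C, was level at -0.01 (SE 0.07). The initiation factors were not called. UBTF, the architectural protein that coats active ribosomal DNA, had a log2 fold change of -0.11 (SE 0.04), with all knockdowns (69.0 to 70.0 RPM) below all controls (73.2 to 76.4 RPM). RRN3, which bridges the polymerase to its promoter and has 3 named pseudogenes in the table, stood at 0.00 (SE 0.06), and TAF1D, a subunit of the promoter selectivity factor SL1, at 0.03 (SE 0.05).

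Of the nucleolar phosphoproteins and the helicase, 2 of 4 fell (50.0%, against 23.5% of all genes tested). NOLC1, or Nopp140, a chaperone of snoRNPs (ENSG00000166197.12; chromosome 10, 103911933 to 103923627, plus strand), had the deepest fall of all 48 genes. NOLC1 was at 89.7, 107.8 and 104.0 RPM in controls and 60.8, 55.9 and 56.7 RPM in knockdowns, and even the lowest control was well above the highest knockdown. The mean was 42.5% lower (log2 fold change -0.79, SE 0.07; limma, Benjamini-Hochberg adjusted p = 8.3e-06). The 2 abundant granular proteins moved less. NPM1, nucleophosmin (ENSG00000181163.9; chromosome 5, 170814120 to 170838141), was at 241.9, 267.4 and 284.0 RPM in controls and 230.2, 217.6 and 239.8 RPM in knockdowns. Control replicate 1 and knockdown replicate 3 nearly met, and the log2 fold change was -0.20 (SE 0.06; limma adjusted p = 0.019), lost as a call without control replicate 3 or knockdown replicate 2, without the trend and under quantile normalization. The table lists 45 named NPM1 pseudogenes, so part of its reads is uncertain.

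NCL, nucleolin (ENSG00000115053.11; chromosome 2, 232318242 to 232348352), took more reads than any other of the 48 genes, at 460.3, 538.9 and 525.7 RPM in controls and 516.2, 483.2 and 526.2 RPM in knockdowns. The knockdown values sat inside the range of the controls, and the log2 fold change was 0.00 (SE 0.06; limma adjusted p = 0.972). DDX21, a helicase of Pol I transcription and rRNA processing, was at -0.19 (SE 0.07; limma adjusted p = 0.053) and gained a call without control replicate 1, whose 152.7 RPM fell inside the knockdown range while the other controls stood at 185.0 and 186.5 RPM.

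In box C/D snoRNPs, which place 2′-O-methyl groups on ribosomal RNA, the enzyme fell and the scaffold did not pass the test. FBL, fibrillarin, the methyltransferase (ENSG00000105202.3; chromosome 19, 40325098 to 40337054, minus strand), was at 73.5, 81.1 and 84.1 RPM in controls and 57.7, 64.0 and 60.3 RPM in knockdowns. No knockdown reached the lowest control, and the mean was 23.7% lower (log2 fold change -0.39, SE 0.06; limma, Benjamini-Hochberg adjusted p = 0.00052). NOP56 (ENSG00000101361.10; chromosome 20, 2632791 to 2639039), the scaffold protein with the most reads of this group, was at 88.5, 104.1 and 95.6 RPM in controls and 90.2, 95.1 and 91.1 RPM in knockdowns. Those groups overlapped (log2 fold change -0.06, SE 0.06). Its paralogue NOP58 was at -0.04 (SE 0.08). SNU13, a further box C/D protein counted below with the other snoRNP factors and chaperones, fell, with all knockdowns below all controls. The log2 fold change of SNU13 was -0.19 (SE 0.05; limma adjusted p = 0.007). Whether FBL differed from its partners in response was not tested.

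Box H/ACA snoRNPs turn uridine into pseudouridine and also hold telomerase RNA. Of the genes for their 4 proteins, 2 fell (50.0%, against 23.5% of all genes tested). NHP2 (ENSG00000145912.4; chromosome 5, 177576461 to 177580968) was at 22.1, 20.0 and 22.8 RPM in controls and 16.4, 18.6 and 20.3 RPM in knockdowns, with the highest knockdown above the lowest control. Its log2 fold change of -0.24 (SE 0.09; limma adjusted p = 0.047) was close to the threshold and lost its call without control replicate 1 or 3 or knockdown replicate 1 or 2, and under several other alternatives. NHP2 overlaps RMND5B on the opposite strand. NOP10, the small protein with 2 E-box words above (ENSG00000182117.4; chromosome 15, 34633917 to 34635378, minus strand), was at 122.3, 135.7 and 136.5 RPM in controls and 107.3, 119.1 and 116.3 RPM in knockdowns. Groups were apart by a small margin and the log2 fold change was -0.20 (SE 0.06; limma adjusted p = 0.015), not called without control replicate 3, without knockdown replicate 1 or without the trend. DKC1, the pseudouridine synthase dyskerin, stood at -0.07 (SE 0.06). GAR1 stood at 0.15 (SE 0.08), with means of 18.9 ± 1.86 RPM in controls and 20.9 ± 0.768 RPM in knockdowns (SD, n = 3).

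Of the small-subunit genes, 9 of 14 fell (64.3%, against 23.5% of all genes tested) and 0 rose, with a median log2 fold change of -0.24. RRP9, which binds the U3 snoRNA at the heart of the processome (ENSG00000114767.6; chromosome 3, 51967446 to 51975957, minus strand), was at 20.3, 21.7 and 22.3 RPM in controls and 13.4, 14.5 and 14.4 RPM in knockdowns. The libraries within each group lay close together and the groups far apart, with a mean 34.2% lower (log2 fold change -0.60, SE 0.07; limma, Benjamini-Hochberg adjusted p = 4.8e-05). DDX10, an RNA helicase (ENSG00000178105.5; chromosome 11, 108535752 to 108811657), was at 25.5, 31.7 and 29.8 RPM in controls and 21.2, 22.5 and 20.8 RPM in knockdowns. All knockdowns lay below all controls (log2 fold change -0.42, SE 0.08; limma adjusted p = 0.002). NOL6 (ENSG00000165271.12; chromosome 9, 33461439 to 33473928, minus strand), the processome protein with the most reads of this group, was at 89.8, 103.9 and 98.6 RPM in controls and 70.5, 76.3 and 76.4 RPM in knockdowns. Again no library of one group entered the range of the other (log2 fold change -0.39, SE 0.06; limma adjusted p = 0.00046).

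The other small-subunit genes that fell did so by 0.18 to 0.30 on the log2 scale in size. BYSL, a pre-40S factor, had a log2 fold change of -0.30, and NAT10, which acetylates cytidines of the small-subunit RNA, -0.29. NOB1, the nuclease that makes the mature 3′ end of that RNA, was at -0.29, WDR75 at -0.27, NOP14 at -0.21 and RRP12, which helps to export the pre-40S particle, at -0.18. Each of these 6 had all knockdowns below all controls. The call of NOP14 was lost without control replicate 3, and that of RRP12 without control replicate 2 or 3 and under quantile normalization, thinning and removal of the GC and length trend. The genes not called were UTP15 (-0.10, SE 0.09), LTV1 (-0.10, SE 0.07), UTP20 (-0.08, SE 0.09), WDR43 (-0.06, SE 0.05) and NOL11 (0.06, SE 0.06). For UTP15, LTV1 and UTP20, control replicate 1 was lower than every knockdown library, and all 3 were called lower once that library was left out.

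**Figure D3:**
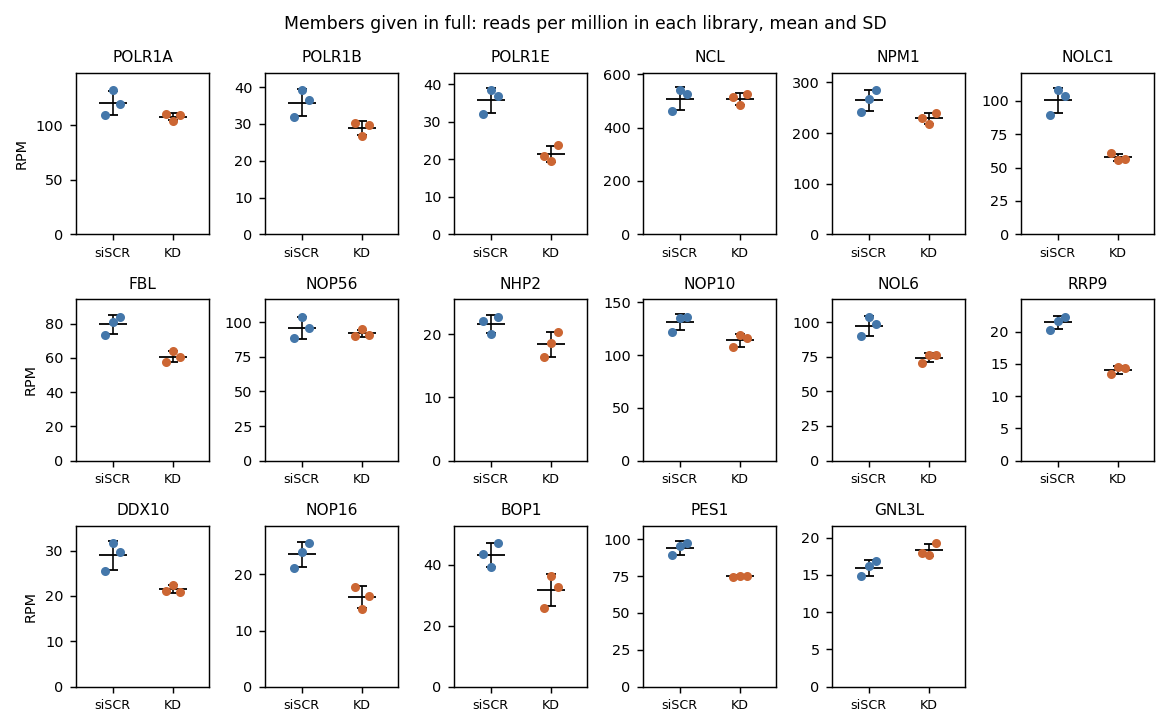
RPM (axis from 0) in each library for the 17 genes given in full, with the mean and SD of the 3 control (siSCR) and 3 knockdown (KD) libraries. NOLC1, POLR1E and RRP9 show wide gaps between the groups, NCL and NOP56 overlap, and GNL3L is higher in all knockdowns.

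Of the 60S assembly genes, 11 of 15 were lower (73.3%, against 23.5% of all genes tested) and 1 higher, with a median log2 fold change of -0.27. This group had the largest share of falls of the 6 role groups. The deepest was in NOP16 (ENSG00000048162.15; chromosome 5, 175810949 to 175815976), an early pre-60S protein, at 21.2, 24.0 and 25.6 RPM in controls and 17.8, 13.9 and 16.2 RPM in knockdowns. All knockdowns lay below all controls (log2 fold change -0.56, SE 0.10; limma, Benjamini-Hochberg adjusted p = 0.00093). NOP16 overlaps HIGD2A and ARL10 on the opposite strand, and the strand setting of the counting was not given in the sources used here.

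All members of the PeBoW complex, which is needed for cutting the precursor of the large-subunit RNA, fell. BOP1 (ENSG00000170727.7; chromosome 8, 145486055 to 145515082) was at 43.6, 39.3 and 47.2 RPM in controls and 25.9, 36.2 and 32.8 RPM in knockdowns. Its knockdown libraries spread more than those of most other genes here, all below the controls (log2 fold change -0.46, SE 0.11; limma adjusted p = 0.006, not called without the trend). PES1, pescadillo (ENSG00000100029.13; chromosome 22, 30972612 to 31003070, minus strand), had the most reads of the 60S group, at 89.0, 95.6 and 97.5 RPM in controls and 74.6, 75.4 and 75.3 RPM in knockdowns. The 3 knockdown libraries were within 1 RPM of each other and well below the controls (log2 fold change -0.32, SE 0.05; limma adjusted p = 0.00034). WDR12, the third subunit, overlapped between groups and was near the threshold, at -0.19 (SE 0.07; limma adjusted p = 0.043). Its call was lost without control replicate 2 or 3 or knockdown replicate 2 or 3, and also with library totals, quantile normalization, thinning and no intensity trend, among others. BOP1 overlaps SCXA and PES1 overlaps TCN2 on the opposite strand, and PES1 has 2 named pseudogenes. Further called genes share this limit. WDR12 overlaps CARF, MRTO4 overlaps EMC1, EBNA1BP2 overlaps TMEM125 and WDR65, and NIP7 overlaps COG8 among others, all on the opposite strand. RRS1 overlaps ADHFE1 on its own strand. Named pseudogenes number 3 for NIP7, 2 for NHP2, 2 for DDX10 and 1 for GNL3L.

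Other pre-60S factors fell by similar amounts: EBNA1BP2 had a log2 fold change of -0.39, RRP1 of -0.29, and MRTO4, a relative of the ribosomal stalk protein P0, of -0.28. NIP7 was at -0.28, NOP2, a methyltransferase of the large-subunit RNA, at -0.27, LAS1L, the nuclease that cuts the second internal spacer, at -0.26, and RRS1, which helps to bring in the 5S RNP, at -0.24. LAS1L lost its call without control replicate 3, without knockdown replicate 3 and without the trend, and RRS1 without control replicate 1 or 3 or knockdown replicate 1 or 3, and also without the trend and with the GC and length trend removed. BRIX1 (-0.14, SE 0.09; called lower without control replicate 1), EIF6, which keeps the subunits from joining early (-0.03, SE 0.06), and GNL3, nucleostemin (0.05, SE 0.05), were not called. GNL3L, the GTPase paralogue of GNL3 (ENSG00000130119.11; chromosome X, 54556644 to 54587504, plus strand), was the gene that rose, at 14.8, 16.2 and 16.9 RPM in controls and 18.0, 17.7 and 19.3 RPM in knockdowns. The groups did not overlap, but the call was marginal (log2 fold change 0.20, SE 0.07; limma adjusted p = 0.045). It was lost without each of the 6 libraries in turn, and also without a filter, without the trend and with a pseudocount of 5, while the log2 fold change stayed between 0.15 and 0.24.

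Levels differed widely among the 48 genes. Per kilobase of the longest transcript in GENCODE 29 (RPM per kb, control mean), NOP10 was highest at 237.4, followed by NPM1 at 150.4, NCL at 126.0 and, in the fifth place, FBL at 56.8, and UTP15 was lowest at 3.66; BOP1 had no length.

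Fold changes varied with base composition. Across 47 of the 48 genes with a transcript sequence, the Spearman correlation of log2 fold change and GC content was -0.42, against -0.31 over 132 other ribosome assembly genes and -0.25 over 12814 protein-coding genes; all points come from the same 6 libraries. Genes that fell had a median GC content of 52.0% (n = 27) and genes not called one of 41.7% (n = 19). DDX10 (40.2%) and WDR75 (37.7%) fell with low GC content, and EIF6 (58.0%) was not called with a high one. With the trend over GC content and length removed across all genes, 31 of 47 were lower and 1 higher, with a median of -0.22. Of all 18546 genes in that fit, 4972 were lower and 3225 higher. NHP2, RRP12 and RRS1 then lost their call, and POLR1A, UBTF, DDX21, WDR43, UTP15, UTP20 and BRIX1 gained one.

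Genes that carry snoRNA genes had fold changes near 0, a grouping made after the values were seen and therefore not tested. The table places a snoRNA gene inside 8 of the 48 genes: TAF1D, NCL, NOP56, NOP58, DKC1, NOL11, WDR43 and GNL3. Of these 8, 0 were called, with log2 fold changes between -0.07 and 0.06 and a median of -0.02. Of the other 40, 28 fell and 1 rose, with a median of -0.25. Median GC content was 41.3% in the 8 hosts and 51.3% in the rest, and with the GC and length trend removed 1 of 8 hosts and 30 of 39 others were lower. Over all protein-coding genes tested the shares were close. Before that removal, 26.2% of 340 genes with a snoRNA gene inside and 26.5% of those without fell. After it, 116 of 338 and 3953 of 12476 were lower. Among cytosolic ribosomal protein genes, 9 of 29 hosts and 24 of 50 others fell before that removal, and 11 of 29 and 21 of 49 after it.

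**Figure D4:**
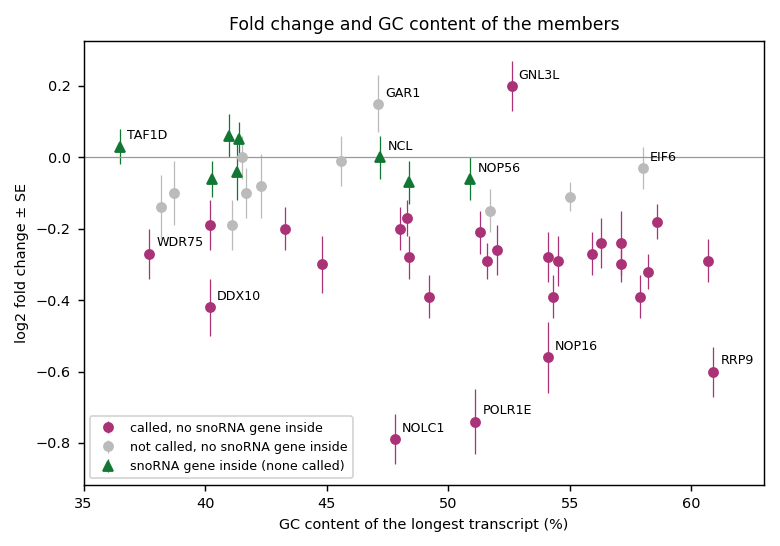
Each point is 1 of the 47 genes with a transcript sequence, with its GC content (%) on the x axis and its log2 fold change with SE on the y axis. Triangles mark the 8 genes with a snoRNA gene inside, which lie between -0.07 and 0.06; filled circles mark called and grey circles uncalled genes among the rest.

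Of 135 other ribosome assembly genes, 52 fell (38.5%, against 23.5% of all genes tested) and 6 rose, with a median log2 fold change of -0.13. By sub-list, 2 of 15 Pol I and ribosomal DNA factors fell (13.3%) and 1 rose. Of 45 small-subunit factors, 21 fell (46.7%) and 3 rose, and of 12 snoRNP factors and chaperones, 3 fell (25.0%) and 0 rose. Of 49 factors of the 60S pathway, 18 fell (36.7%) and 2 rose, and of 14 exosome genes, 8 fell (57.1%) and 0 rose. The Pol I share was below that of all genes tested, and the snoRNP share was near it. Small-subunit factors had a larger share of falls than 60S factors here, the reverse of the order among the 48. The medians of these sub-lists were -0.04, -0.15, -0.06, -0.11 and -0.24 in that order, so that the exosome genes had a median lower than that of the 48 genes. The largest falls were in RRP1B, a nucleolar relative of RRP1 (-0.75, SE 0.05), and in EXOSC2 (-0.60, SE 0.07) and EXOSC5 (-0.60, SE 0.11), 2 subunits of the RNA exosome that trims ribosomal RNA ends. Among the genes that passed the test, the largest rises were in RCL1 (0.42, SE 0.07), MPHOSPH10 (0.27, SE 0.06) and DDX52 (0.21, SE 0.05), all small-subunit factors. Of 79 cytosolic ribosomal protein genes, the products that these factors assemble, 33 fell (41.8%) and 0 rose (median -0.13). No difference between these lists was tested.

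**Figure D5:**
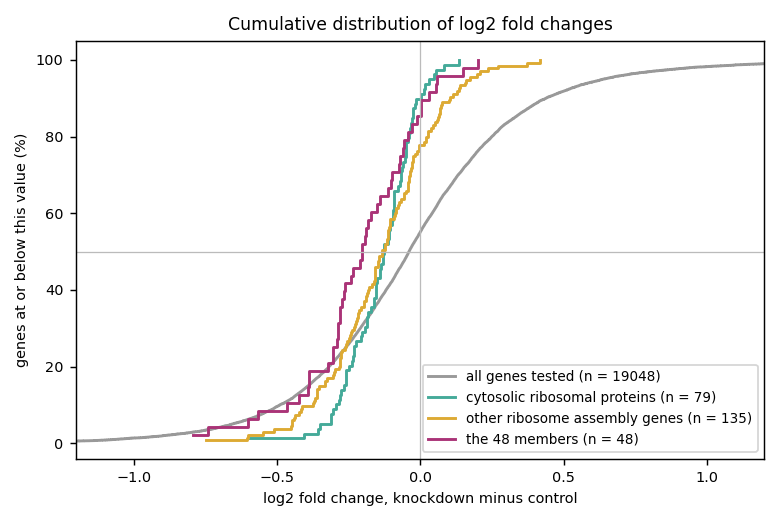
Cumulative distributions of log2 fold change (knockdown minus control, x axis) for all genes tested, 79 cytosolic ribosomal protein genes, 135 other ribosome assembly genes and the 48 genes; the y axis is the percent of genes at or below each value. The curve of the 48 genes crosses 50% at -0.20 and spans -0.79 to 0.20.

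MYC and its partners were read as the regulators best known for these genes. MYC was at 38.1, 38.9 and 40.7 RPM in controls and 25.5, 27.7 and 27.5 RPM in knockdowns. The 2 groups were far apart and each tight, with a mean 31.5% lower (log2 fold change -0.55, SE 0.06; limma, Benjamini-Hochberg adjusted p = 3.3e-05). Of 9 genes of the network that were tested, 4 fell and 2 rose, so 66.7% were called, against 41.0% of all genes tested. MLXIP (-0.70), MXD1 (-0.50) and MLX (-0.34) fell beside MYC, and MXI1 (0.52) and MAX (0.18) rose. The call of MAX was lost without control replicate 3 or knockdown replicate 2. MNT (-0.13, SE 0.07), MXD3 (-0.04, SE 0.30) and MXD4 (0.20, SE 0.12) were not called with all libraries, though MXD4 was without control replicate 1 (0.33) and MNT without control replicate 2 (-0.20). Any part of the MYC change in that of the 48 genes was not tested.

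The 5S RNP, made of RPL5, RPL11 and 5S RNA, is known to bind MDM2, a ubiquitin ligase, when ribosome assembly is disturbed. In the list of 6 genes around it, 2 rose and 1 fell, so 50.0% were called, against 41.0% of all genes tested. MDM2 was at 113.0, 101.6 and 104.9 RPM in controls and 193.0, 181.1 and 180.5 RPM in knockdowns, without overlap (log2 fold change 0.80, SE 0.05; limma adjusted p = 1.1e-06). MDM4, a relative of MDM2, rose as well (0.65, SE 0.09). CDKN2A fell (log2 fold change -0.59, SE 0.21; limma adjusted p = 0.044) on control values that spread from 42.6 to 86.8 RPM, and its groups overlapped. Its call was lost without control replicate 1 (log2 fold change -0.35) or 3 and without knockdown replicate 1 or 3. RPL5 (-0.03, SE 0.04), RPL11 (-0.10, SE 0.05) and HEXIM1 (0.09, SE 0.06), an NPM1-binding regulator of transcription elongation, were not called. These are RNA levels, and binding of the 5S RNP to MDM2 was not measured. Any link between ribosome assembly and the changes of MDM2, MDM4 and CDKN2A was not tested.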

How the data were processed

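RNA was measured in 6 libraries, 3 per group. The authors deposited 1 table of log2 values; per the values themselves, an offset of 0.5 reads was added, scaled as CPM by effective sizes and logged, since undoing that offset gave whole reads for 100% of values within a tolerance of 0.01. Bowtie2, featureCounts and hg19 are listed in the submitters' processing notes, without versions; strand setting and annotation release are not given in the sources used here. Positions are the table's. Limma 3.58.1 (R 4.3.3; lmFit, eBayes with intensity trend, two-sided) was run on the deposited log2 values, group as the sole term, over 19048 genes with a mean of at least 10 normalized reads; Benjamini-Hochberg adjusted p was called at 0.05. The script was tested on simulated data. RPM are the recovered reads on that scale, without the offset. Counts of 0 allow up to 3 reads, or 0.0596 to 0.134 RPM, and cover counting error only. Chi-square per degree of freedom between replicates was 2.88 to 11.1, so each library counted once. The exact permutation test of 3 against 3 libraries cannot go below p = 0.1.

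Members, role groups and lists were chosen with earlier results of these data known. Full values were given for the 2 called genes with the largest change in each role group, the gene with the most reads in each, and any gene called against the majority; from other assembly lists the 3 largest falls and rises were named. GC content and length came from the longest GENCODE 29 transcript by gene ID, promoter windows from RefSeq (GRCh38.p14) by symbol. One further gene meant for the 5S RNP list was taken out and is not reported here. Coordinates were not converted between builds. Alternatives covered scaling, pseudocount, filter, variance model, replicate block, left-out libraries, thinning, GC and length, and thresholds.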

Additional observations from a re-analysis of the deposited data

How the results depend on the processing

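Over the 19 other fits, the number of the 48 genes called ran from 19 to 32 (29 as reported), and 20 to 32 with a library left out. Over all genes, the number called ran from 5803 of 19048 (without control replicate 3) to 10220 of 57819 (no filter). With a library left out it ran from 5803 to 7330 of 19048. Of the 29 called genes, 17 kept sign and call in every fit that could be made, 12 lost the call in at least 1 and 0 changed sign; 8 others gained a call in at least 1. Without the intensity trend 19 of the 48, 20 of 79 ribosomal protein genes and 6608 of all 19048 genes were called. All 19 and all 20 were lower, as were 3703 of the 6608. An adjusted p under 0.01 left 18 of the 48, 5195 of all 19048 and 34 of 135 other assembly genes, fewer by construction. Requiring 0.5 or more in absolute log2 fold change left 4 of the 48, all lower, and 2643 of all 19048, 1458 of them lower. The share called was then smaller among the 48 than among all genes tested, and the share that fell was near that of all genes. That setting left 5 of 135 other assembly genes and 1 of 79 ribosomal protein genes, all lower. Signs changed in 8 uncalled genes, and the cause was not tested. POLR1C was 0.008 with library totals, 0.042 under quantile normalization and -0.054 to 0.030 with a library left out. NOP58 was 0.006 under quantile normalization, and NCL -0.001 after thinning. With the GC and length trend removed, RRN3 was -0.078, TAF1D -0.095, NCL -0.054, NOL11 -0.001 and EIF6 0.105. With a library left out, RRN3 ran from -0.056 to 0.041, NCL from -0.067 to 0.047, NOP56 from -0.114 to 0.002, NOP58 from -0.139 to 0.018 and EIF6 from -0.080 to 0.013. Outside the 48, MXD3 was 0.005 with a pseudocount of 5, 0.105 with the GC and length trend removed and -0.300 to 0.339 with a library left out, and RPL5 was 0.026 under quantile normalization. CDKN2A lost its call in 8 fits, MAX in 2. The lncRNA's log2 fold change was -1.73 with a pseudocount of 1 and -0.72 with one of 5, by construction for few reads. Replicate numbers did not pair the libraries (correlations of deviations -0.149, -0.183 and 0.065); with the number as a replicate block, 24 of the 48 were called, all 24 among the 29 (POLR1D, NHP2, WDR12, RRS1 and GNL3L lost their call), and 6454 of all genes. The planned edgeR and DESeq2 fits were not run. With voom on recovered reads, 29 of the 48 and 7879 of all 19048 genes were called. Each of the 48 genes held at least 300 reads in every library; after thinning, RRP12 and WDR12 lost their call.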
